A study of Homo sapiens with 12 samples.

Results

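The subject is a set of 10 genes that build and restrain the pericellular protease system of 2 human bladder cancer cell lines: the matrix metalloproteinases MMP1, MMP2, MMP3, MMP7, MMP9, MMP10, MMP13 and MMP14, and the tissue inhibitors TIMP1 and TIMP2. Each gene was taken from the array rows that GEO's platform annotation pairs with exactly 1 gene symbol. TIMP2 shared its row with a neighbouring gene and had no row of its own, so 9 of the 10 genes were analysed, among 22465 genes in all. Each of the 9 had 1 row. MMP1 was chosen by its measured difference between the treated lines, which is therefore described without a test.

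Transcript levels came from total RNA on Affymetrix whole-transcript arrays. RT112 and 5637 are established bladder cancer lines, so a difference between them is a difference between 2 lines and not between kinds of tumour. CM272 inhibits the histone methyltransferase G9a and DNA methyltransferases together. The groups used here were 5637 given CM272 at its IC50, RT112 given CM272 at its IC50, and RT112 left untreated, with 3 arrays each. All were grown in the same serum-containing medium, and no label states how long CM272 was left on. Whether a group's 3 arrays stand for separate cultures is not stated either, so the error behind every p-value is the spread of these arrays, which may be technical. Untreated 5637 was not used, because its values are displaced against the rows of the table. Over transcript clusters its mean correlated with that of treated 5637 at r = 0.0274, against 0.966 over the other rows. With no usable untreated 5637, what CM272 did in that line cannot be told apart from what the line was like before.

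Matrix metalloproteinases are zinc enzymes that cut proteins of the extracellular matrix. They are made as inactive precursors, and other proteases, among them plasmin, furin and other metalloproteinases, remove the inhibitory propeptide. Collagenases (MMP1, MMP13) open the triple helix of fibrillar collagen, gelatinases (MMP2, MMP9) cut denatured and basement membrane collagen, stromelysins (MMP3, MMP10) and matrilysin (MMP7) have broad substrates, and MMP14 sits in the plasma membrane, where it activates the precursor of MMP2. TIMPs bind the active site and block it. In carcinomas many of these enzymes are made by stromal cells, and some by the tumour cells themselves, often under AP-1 and ETS transcription factors.

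Promoter sequence is shown for the members that the RefSeq table holds, with AP-1 type letters marked. MMP7 and MMP10, which carry such a motif at the same place, were higher in treated 5637 than in treated RT112. MMP14, which lacks it here, was higher too. MMP20, a relative that carries it, had a log2 difference of -0.02. Whether the motif bears on any level was not tested. Of the 10 genes, 4 were matched: MMP7, MMP10, MMP14 and TIMP1. MMP1, MMP2, MMP3, MMP9, MMP13 and TIMP2 were not. Each line gives the 250 bases before the gene's start, 5′ to 3′ on the gene's strand, from RefSeq on GRCh38.p14. Capitals mark matches to TGANTCA, the letters of an AP-1 site, where N is any base. The letters read alike on both strands. The stretches lie at chr11:102530748-102530997 on the minus strand for MMP7, chr11:102780629-102780878 on the minus strand for MMP10, chr14:22836335-22836584 on the plus strand for MMP14 and chrX:47582186-47582435 on the plus strand for TIMP1.
MMP7: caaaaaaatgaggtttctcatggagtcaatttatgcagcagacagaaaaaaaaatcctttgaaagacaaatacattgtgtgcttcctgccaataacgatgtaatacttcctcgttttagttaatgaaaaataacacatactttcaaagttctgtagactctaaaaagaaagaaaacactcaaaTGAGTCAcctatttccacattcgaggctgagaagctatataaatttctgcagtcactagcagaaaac
MMP10: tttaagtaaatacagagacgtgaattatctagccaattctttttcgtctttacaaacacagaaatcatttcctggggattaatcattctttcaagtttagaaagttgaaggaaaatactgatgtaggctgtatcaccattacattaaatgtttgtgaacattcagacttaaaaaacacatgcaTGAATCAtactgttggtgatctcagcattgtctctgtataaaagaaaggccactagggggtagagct
MMP14: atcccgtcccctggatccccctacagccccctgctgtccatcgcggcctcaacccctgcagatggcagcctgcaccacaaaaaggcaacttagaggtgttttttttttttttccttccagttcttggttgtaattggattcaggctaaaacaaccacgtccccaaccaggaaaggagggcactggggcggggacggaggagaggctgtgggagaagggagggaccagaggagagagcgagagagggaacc
TIMP1: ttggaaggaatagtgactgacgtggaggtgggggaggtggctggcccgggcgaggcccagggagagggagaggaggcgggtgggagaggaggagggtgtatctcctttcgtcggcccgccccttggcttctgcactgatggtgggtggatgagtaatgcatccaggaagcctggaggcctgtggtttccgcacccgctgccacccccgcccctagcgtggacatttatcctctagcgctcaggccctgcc

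Both MMP7 and MMP10 held 1 AP-1 type match, and in each it lay at positions -67 to -61 from the start. A TATA box, searched as TATAAA on both strands, lay at -30 to -25 in MMP7 and at -31 to -26 in MMP10. MMP14 and TIMP1 held no match to TGANTCA or TATAAA in this window. Stretches that differ from these letters, such as tgagtaa in TIMP1, were not counted. MMP14 and TIMP1 were richer in G and C, with 56.8% in MMP14 and 64.8% in TIMP1, against 33.6% in MMP7 and 34.4% in MMP10. MMP14 had 1 and TIMP1 had 2 matches to the GC box GGGCGG on either strand. The ETS-type motif AGGAAG matched at 2 places in MMP7 and 1 in TIMP1, and no match overlapped another motif. Of 35116 promoters of the same length, 6.57% held TGANTCA, 10.7% TATAAA, 28.7% AGGAAG and 42.6% GGGCGG. Among 27 genes of the MMP and TIMP families that were searched for, 15 had an entry, and 3 of these held TGANTCA, the third being MMP20. These are matches of letters and not shown to be bound sites.

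Epithelial markers checked the identity of the cultures. All 7 (EPCAM, CDH1, KRT5, KRT7, KRT8, KRT18, KRT19) lay above the array median in all 3 groups, and their sum per array was 79.9 to 80.4 log2 units in treated 5637, 84.8 to 85.6 in treated RT112 and 85.9 to 86.9 in untreated RT112. Stromal and immune cells are usual sources of these proteases, so their markers were examined too. Of 8 leukocyte and macrophage markers only CD68, also a lysosomal protein of other cells, lay above the median, and of 4 endothelial markers 0 did, in each of the 3 groups. The leukocyte sum per array was 34.4 to 34.9 in treated 5637, 35.0 to 35.4 in treated RT112 and 38.7 to 39.4 in untreated RT112. Of 5 measured fibroblast markers 2 lay above the median in treated 5637 (COL1A1, COL1A2), 3 in treated RT112 (those and LUM) and 1 in untreated RT112 (LUM). The fibroblast sum was 25.8 to 26.3 in treated 5637, 25.3 to 26.1 in treated RT112 and 28.1 to 28.3 in untreated RT112. All these sums are of deposited values, and arrays of untreated RT112 lay higher as a whole. The median log2 difference with CM272 in RT112 was -0.47 over the fibroblast and -0.58 over the leukocyte markers. With arrays centred on their medians it was 0.09 and -0.02. The markers not named here for a group, DCN and PDGFRB in each, lay below its median. The part of these markers in the results below was not tested.

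Levels are the deposited log2 values. Arrays of treated cells lay lower as a whole: the median of the tested genes was 5.01 to 5.02 in treated 5637, 4.97 to 4.98 in treated RT112 and 5.53 to 5.54 in untreated RT112. The files carry no detection call. A level below its array's median is therefore described as dim, and if a dim level is background, a difference from it understates the true one. Treated arrays also held exact ties: all 3 replicates were equal for 15.3% of genes in treated 5637, for 12.1% in treated RT112 and for 0 genes in untreated RT112. An SD of 0 below marks such a tie. Had treated arrays been processed otherwise than untreated ones, that and CM272 itself cannot be told apart. Genes were tested with limma on the 9 arrays, and p-values were adjusted over all 22465 genes with a threshold of 0.05. Each result was also computed after centring arrays on their medians and after quantile normalization. A gene is said to be called alike where all 3 scalings call it with 1 sign.

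**Figure D1:**
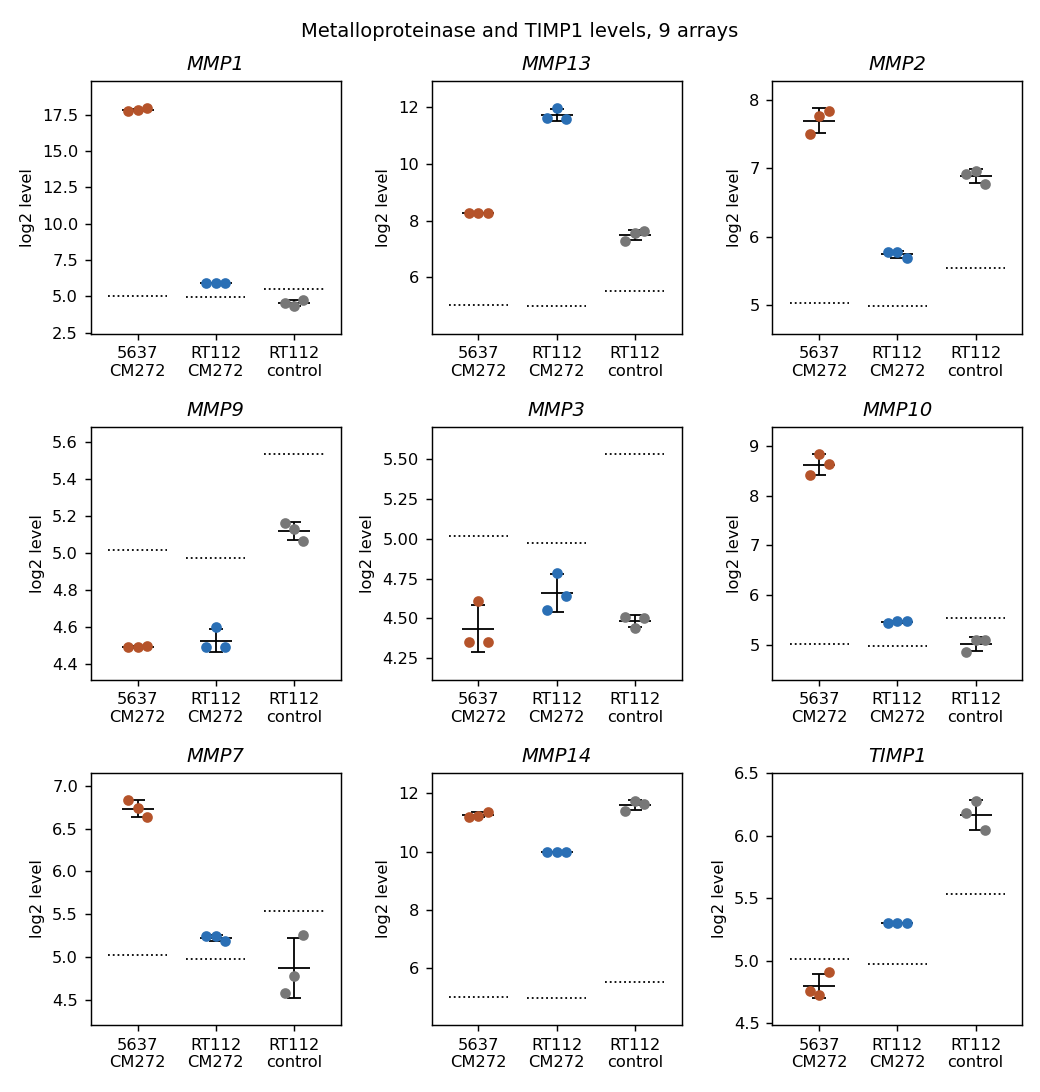
Log2 levels of the 9 analysed genes (vertical axes, a scale of its own for each gene) in 3 arrays of 5637 CM272, RT112 CM272 and RT112 control. Points are arrays, horizontal strokes with bars are means ± SD, and dotted lines are the median of the tested genes in that group's arrays. MMP1 is high in treated 5637 alone, MMP13 is highest in treated RT112, and MMP3 and MMP9 lie below the dotted line in all 3 groups.

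The fibrillar collagenases differed in opposite directions between the treated lines. MMP1, interstitial collagenase, had 17.80, 17.80 and 17.95 in treated 5637, against 5.91 in each of the 3 arrays of treated RT112 and 4.54, 4.30 and 4.72 in untreated RT112. The groups did not overlap, and untreated RT112 lay below its array median. The log2 difference between the treated lines, 11.94, was the highest of all genes and is the value MMP1 was chosen for. MMP13, collagenase 3, showed the reverse order of the treated lines. It had 8.27 in each of the 3 arrays of treated 5637, against 11.62, 11.95 and 11.57 in treated RT112. Untreated RT112 had 7.27, 7.57 and 7.63 of MMP13 and was the lowest group for both genes. MMP13 was above the array median in every group.

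In RT112 given CM272 the transcript of MMP13 rose by a log2 difference of 4.22 ± 0.12 (SE, n = 3 each), or 18.7-fold on the deposited scale (adjusted p = 4.62e-08, limma). Only 35 genes had a higher deposited difference in that comparison, which put MMP13 at rank 36 of 22465. The difference was 4.78 after centring and 4.50 after quantile normalization, and it stayed between 4.11 and 4.29 when any of the 9 arrays was left out. MMP1 rose too, by 1.39 ± 0.10 (adjusted p = 2.17e-06, limma), 1.95 after centring and 2.01 after quantile normalization. Untreated MMP1 was dim, so the rise may be understated. Its treated replicates were tied, so its SE rests in part on an SD of 0. In treated 5637 MMP13 was lower than in treated RT112 by a log2 difference of -3.44 ± 0.12 (adjusted p = 2.17e-07, limma). That comparison shares the treated RT112 arrays with the treatment comparison, so the high MMP13 level of those arrays enters both. These are bulk samples, in which fewer expressing cells and less RNA per cell cannot be told apart.

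The gelatinases differed from each other. MMP2, gelatinase A, had 7.50, 7.77 and 7.84 in treated 5637, against 5.77, 5.77 and 5.68 in treated RT112 and 6.92, 6.97 and 6.77 in untreated RT112. All 3 groups were separate, with treated RT112 lowest. MMP2 was higher in treated 5637 than in treated RT112 by 1.96 ± 0.09 (adjusted p = 1.14e-06, limma). In RT112 it fell by 1.15 ± 0.09 with CM272 (adjusted p = 4.67e-06, limma), and its difference was -0.59 after centring and -0.66 after quantile normalization. MMP9, gelatinase B, averaged 4.49 ± 0.0045 in treated 5637, 4.53 ± 0.06 in treated RT112 and 5.12 ± 0.05 in untreated RT112 (SD, n = 3 each), below the array median throughout. Between the treated lines its difference was -0.03 ± 0.04 (adjusted p = 0.675, limma). The deposited difference of MMP9 with CM272 in RT112, -0.59 ± 0.04, was close to the median of all genes and was -0.03 after centring and 0.02 after quantile normalization, so no change is read from it.

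The stromelysins, although close relatives, did not share a pattern. MMP10, stromelysin 2, had 8.41, 8.83 and 8.63 in treated 5637, against 5.44, 5.47 and 5.47 in treated RT112 and 4.85, 5.09 and 5.10 in untreated RT112. The ranges were separate, and untreated RT112 was dim. MMP10 was higher in treated 5637 than in treated RT112 by 3.16 ± 0.11, or 8.97-fold (adjusted p = 2.06e-07, limma). With CM272 in RT112 it rose by 0.44 ± 0.11 as deposited (adjusted p = 0.0044, limma), and by 1.00 after centring and 1.06 after quantile normalization. MMP3, stromelysin 1, averaged 4.43 ± 0.15 in treated 5637, 4.66 ± 0.12 in treated RT112 and 4.48 ± 0.04 in untreated RT112, below the array median in all 3. Its difference between the treated lines, -0.22 ± 0.08 (adjusted p = 0.0823, limma), did not pass on the deposited values but did after centring (-0.27, adjusted p = 0.0436) and without replicate 2 of treated 5637 (-0.31, adjusted p = 0.0154). In RT112 the MMP3 difference with CM272 was 0.18 ± 0.08 (adjusted p = 0.0817, limma), and 0.74 after centring and 0.82 after quantile normalization, both past the threshold. It passed on the deposited values without replicate 1 of treated RT112 (0.23, adjusted p = 0.0456) and without replicate 2 of treated 5637 (0.18, adjusted p = 0.0346).

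MMP7, matrilysin, an enzyme made mainly by epithelial cells, had 6.83, 6.74 and 6.63 in treated 5637, against 5.24, 5.24 and 5.18 in treated RT112 and 4.57, 4.77 and 5.25 in untreated RT112. Treated 5637 stood apart, while the RT112 groups overlapped through the third untreated array. MMP7 was higher in treated 5637 than in treated RT112 by 1.52 ± 0.15 (adjusted p = 8.39e-05, limma). The difference with CM272 in RT112 was 0.35 ± 0.15 and did not pass on the deposited values (adjusted p = 0.0548, limma). It passed without replicate 3 of untreated RT112, with 0.55 (adjusted p = 0.00046), as well as after centring, with 0.91, and quantile normalization, with 0.97.

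The membrane enzyme and the inhibitor both fell in RT112. MMP14 had 11.20, 11.24 and 11.36 in treated 5637, against 10.01 in all 3 arrays of treated RT112 and 11.41, 11.75 and 11.64 in untreated RT112. Treated RT112 was the lowest group. MMP14 fell by 1.59 ± 0.09 with CM272 in RT112 (adjusted p = 4.52e-07, limma), with -1.03 after centring and -1.44 after quantile normalization, and was higher in treated 5637 than in treated RT112 by 1.26 ± 0.09 (adjusted p = 8.86e-06, limma). TIMP1 had 4.76, 4.73 and 4.91 in treated 5637, against 5.30 in all 3 arrays of treated RT112 and 6.18, 6.28 and 6.04 in untreated RT112. The groups were separate, and treated 5637 was dim. TIMP1 fell by 0.87 ± 0.07 with CM272 in RT112 (adjusted p = 4.86e-06, limma). Most of that size was the shift of all genes, and the difference was -0.31 after centring and -0.35 after quantile normalization. Treated 5637 had less TIMP1 than treated RT112, with a log2 difference of -0.50 ± 0.07 (adjusted p = 0.000597, limma).

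**Figure D2:**
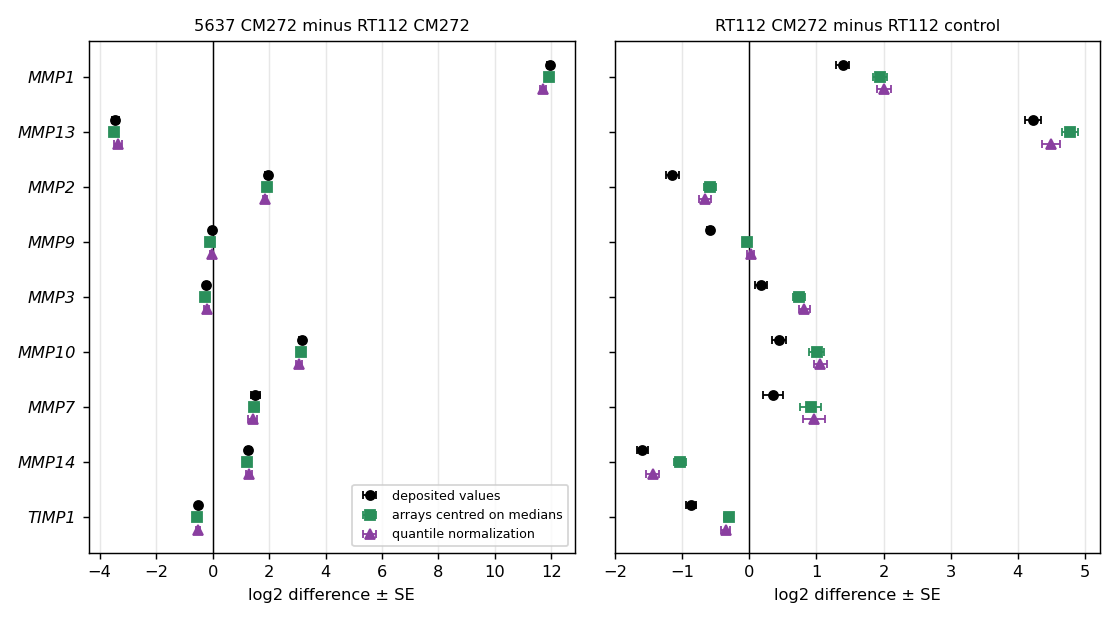
Log2 differences ± SE (horizontal axes, a scale of its own for each panel) of the 9 analysed genes for 5637 CM272 minus RT112 CM272 (left) and RT112 CM272 minus RT112 control (right), from the deposited values, after centring arrays on their medians and after quantile normalization. The 3 scalings nearly coincide between the treated lines, and in RT112 both rescalings lie to the right of the deposited differences, with MMP2, MMP14 and TIMP1 still below 0.

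Counted together, 4 of the 8 genes tested between the treated lines (MMP2, MMP7, MMP10, MMP14) were higher in 5637 and 2 (MMP13, TIMP1) lower. Of all genes 17.1% were called higher and 15.8% lower on the deposited values, and the same 6 members were called alike in all 3 scalings, where the background was 14.9% higher and 15.2% lower. Centring gave 4 higher and 3 lower, with MMP3, against 15.5% and 18.8% of genes, and quantile normalization 4 and 2, against 16.1% and 17%. Groups did not overlap for the same 4 and 2 members, against 21.3% and 21.6% of genes. The median log2 difference of the 8 genes was 0.61, against -0.01 for all genes. In RT112 given CM272, 3 of 9 members were called higher on the deposited values (MMP1, MMP10, MMP13) and 4 lower (MMP2, MMP9, MMP14, TIMP1), against a background of 10.8% higher and 74.2% lower. Called alike were 3 higher (MMP1, MMP10, MMP13) and 3 lower (MMP2, MMP14, TIMP1), against 10.8% and 32.4% of all genes. Centring and quantile normalization each called 5 members higher and 3 lower, against 33.9% and 34.8% of genes after centring and 31.2% and 37.2% after quantile normalization. Among members called alike the share that fell, 3 of 9, is close to that of all genes, while on the deposited values fewer of them fell than of all genes. Groups did not overlap for 4 members in the upward direction (with MMP3) and 4 in the downward one, against 11.1% and 74.3% of genes. The members' median difference was 0.18 as deposited, against -0.57 for all genes, and 0.82 once quantile-normalized, against -0.04. These members were listed with results of these data known, so the counts describe them and test nothing.

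**Figure D3:**
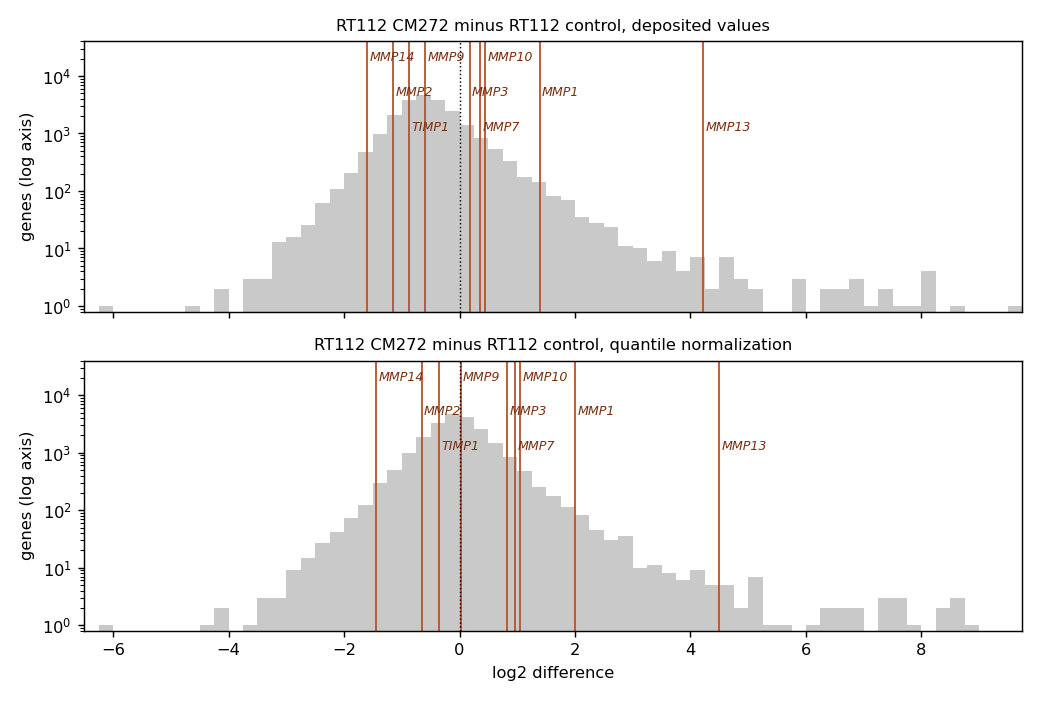
Distribution of the log2 difference of RT112 CM272 minus RT112 control over 22465 genes (horizontal axis, bins of 0.25; vertical log axis, number of genes), from the deposited values (top) and after quantile normalization (bottom). Vertical lines mark the 9 analysed genes. The bulk of genes lies left of 0 at the top and around 0 at the bottom, and MMP13 lies in the far right tail of both.

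The collagenase, stromelysin and matrilysin genes lie side by side on chromosome 11, in the order MMP7, MMP20, MMP27, MMP8, MMP10, MMP1, MMP3, MMP12 and MMP13 by RefSeq (assembly GRCh38.p14). The cluster did not differ as a block between the treated lines. MMP7, MMP10, MMP12 and, as the gene chosen for it, MMP1 were higher in 5637, and MMP13 at the cluster's end was lower. With CM272 in RT112, MMP1, MMP10, MMP12 and MMP13 were called alike as higher, against 10.8% of all genes. After centring MMP3, MMP7 and MMP27 were called higher too, against 33.9% of all genes. MMP8 and MMP20 were not called after centring (-0.14 and -0.07). As deposited, MMP8, MMP20 and MMP27 were called lower, against 74.2% of all genes. MMP12, macrophage elastase, averaged 6.36 ± 0.27 in treated 5637, 4.82 ± 0.02 in treated RT112 and 4.03 ± 0.12 in untreated RT112 (SD, n = 3 each). It was higher in treated 5637 than in treated RT112 by 1.54 ± 0.12 (adjusted p = 2.26e-05, limma), and in RT112 it rose by 0.79 ± 0.12 with CM272 (adjusted p = 0.000336, limma), 1.35 after centring and 1.37 after quantile normalization, with both RT112 levels dim. MMP20, MMP27 and MMP8, enzymes of tooth enamel, of less known role and of neutrophils, averaged 3.96, 3.80 and 3.78 in treated 5637 and 3.98, 3.75 and 3.75 in treated RT112, below the array median. Their differences between the treated lines were -0.02, 0.05 and 0.04. Genes of this cluster resemble each other in sequence and probe sequences were not used here, so a share of signal between them was not tested. On the arrays where MMP1 stood at 17.85, MMP3, MMP8, MMP20 and MMP27 were dim. MMP7, MMP10, MMP12 and MMP13 lay above the median of those arrays.

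Genes beside the cluster were set next to it. On the side of MMP7, TMEM123 was higher in treated 5637 than in treated RT112 by 1.55 ± 0.08 (adjusted p = 1.64e-06, limma) and BIRC2, an inhibitor of apoptosis, by 2.77 ± 0.09 (adjusted p = 1.89e-07). BIRC3, the next gene, was not analysed here. On the side of MMP13, DCUN1D5 was higher by 0.68 ± 0.10 (adjusted p = 0.000664) and DYNC2H1, a ciliary dynein chain, by 1.25 ± 0.15 (adjusted p = 0.000242), while PDGFD differed by 0.08 ± 0.05 (adjusted p = 0.321). In RT112, TMEM123 rose with CM272 by 0.42 ± 0.08 (adjusted p = 0.00101, limma). The neighbours of MMP13 did not share its rise: DCUN1D5 fell by 0.98 ± 0.10 (adjusted p = 1.64e-05, limma) and DYNC2H1 fell by 1.16 ± 0.15 (adjusted p = 9.8e-05). Both falls are on the deposited values, where the median difference of all genes was -0.57 and 74.2% of genes were called lower. The differences of BIRC2 and PDGFD, -0.15 and -0.51, had the other sign after centring, with 0.41 and 0.05.

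**Figure D4:**
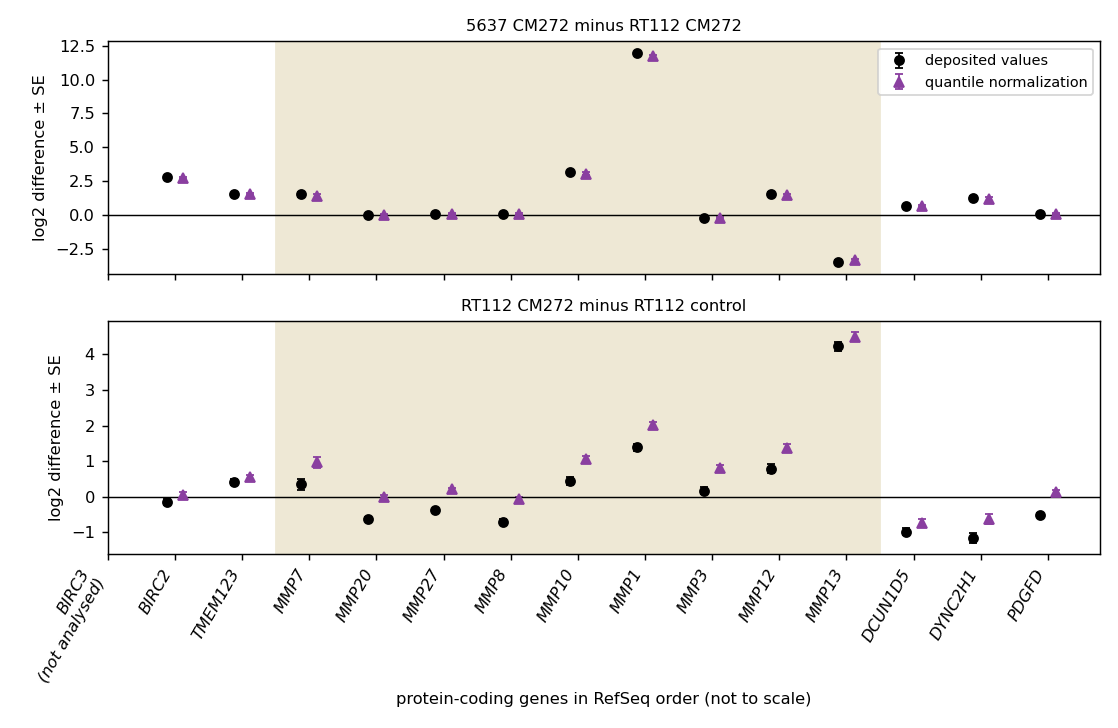
Log2 differences ± SE (vertical axes) of the protein-coding genes in and around the metalloproteinase cluster of chromosome 11, in RefSeq order and not to scale, for 5637 CM272 minus RT112 CM272 (top) and RT112 CM272 minus RT112 control (bottom), from deposited and quantile-normalized values. The shaded genes are the cluster. MMP1 reaches 11.94 at the top and MMP13 reaches 4.22 at the bottom, while MMP3, which lies between MMP1 and MMP12, stays near 0 at the top.

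By Pearson's r with MMP1 over the 9 arrays, the most alike of 17084 other protein-coding genes were INHBA (r = 0.9992), which encodes an activin subunit, ANTXR1 (0.9987), ABCA1 (0.9986), a cholesterol exporter, MYH10 (0.9986), a non-muscle myosin, and DAPK1 (0.9985). INHBA averaged 10.32 in treated 5637, 6.51 in treated RT112 and 6.01 in untreated RT112. The 9 arrays hold 3 groups only, and 123 protein-coding genes had an r above 0.99, so these values mostly record genes that are high in treated 5637.

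The lists that follow are read against all genes, of which 14.9% were called alike as higher and 15.2% as lower in treated 5637 than in treated RT112, and 10.8% as higher and 32.4% as lower with CM272 in RT112. Other metalloproteinases were mostly dim. Of 14 measured other metalloproteinases, 3 were called alike as higher in treated 5637 (MMP12, MMP16, MMP19) and 0 as lower. With CM272 in RT112 2 were higher (MMP12, MMP15) and 3 lower (MMP11, MMP24, MMP28). In both comparisons the share called higher was near that of all genes, and the share called lower was below it. With only 14 genes, no property of the list is read from these counts. MMP16, a membrane enzyme related to MMP14, averaged 5.42 ± 0.08 in treated 5637 and 4.17 ± 0.08 in treated RT112 (SD, n = 3 each), a difference of 1.25 ± 0.07 (adjusted p = 3.33e-06, limma), and MMP19 differed by 0.45 ± 0.10 (adjusted p = 0.00595). The falls of MMP11, MMP24 and MMP28 in RT112 were -0.98, -0.97 and -0.93 as deposited, and -0.34, -0.38 and -0.35 once quantile-normalized, all among dim levels. The list's median difference in RT112 was -0.59, against -0.57 for all genes. Among the other inhibitors, TIMP3, which binds to the matrix, had the clearer fall. It averaged 6.39 ± 0.09 in treated RT112 and 8.06 ± 0.14 in untreated RT112, a difference of -1.66 ± 0.08 (adjusted p = 2.04e-07, limma). Quantile normalization gave -1.26. RECK, a membrane-anchored inhibitor, was higher in treated 5637 than in treated RT112 by 0.58 ± 0.07 (adjusted p = 0.000251, limma). A2M, a plasma protease trap, was dim in every group and its difference in RT112 was -0.76 ± 0.05, and -0.12 after quantile normalization. The treated RT112 replicates of A2M were tied.

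Genes that activate the precursors differed between the lines. Of 5 measured genes of the plasminogen system and of pro-enzyme activation, 3 were called alike as higher in treated 5637 and 1 as lower. The shares of all genes were 14.9% and 15.2%. PLAU, which encodes the urokinase that turns plasminogen into plasmin, averaged 9.65 ± 0.26 in treated 5637 and 6.61 ± 0.05 in treated RT112, a difference of 3.03 ± 0.13 (adjusted p = 7.07e-07, limma). Its receptor gene PLAUR was higher by 1.94 ± 0.09 (adjusted p = 1.00e-06) and the tissue activator PLAT by 1.12 ± 0.05 (adjusted p = 5.62e-07). FURIN, the convertase that cleaves the precursor of MMP14, averaged 7.81 ± 0.14 in treated 5637, against 11.08 ± 0.09 in treated RT112 and 8.97 ± 0.14 in untreated RT112. FURIN was lower in treated 5637 than in treated RT112 by -3.26 ± 0.09 and rose in RT112 with CM272 by 2.11 ± 0.09 (adjusted p = 8.42e-08 and 1.73e-07, limma), 2.30 after quantile normalization. PLAUR rose in RT112 by 0.66 ± 0.09 (adjusted p = 0.000126) and PLAT fell by 0.93 ± 0.05 (adjusted p = 2.90e-07), with -0.46 after quantile normalization. The treated RT112 replicates of PLAT were tied.

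ADAM and ADAMTS genes encode relatives of the metalloproteinases that shed membrane proteins or cut proteoglycans. Of 13 measured, 10 were called alike as higher in treated 5637 than in treated RT112, against 14.9% of all genes. As lower 1 (ADAM15) was called alike, against 15.2%, and the median difference of the list was 0.60. The smallest adjusted p were those of ADAMTS12 (1.38 ± 0.05), ADAMTS5 (1.28 ± 0.05), ADAM19 (1.36 ± 0.06) and ADAM12 (0.93 ± 0.06), between 2.85e-07 and 8.61e-06 (limma). The treated 5637 replicates of ADAMTS5 were tied, so its SE rests in part on an SD of 0. ADAM15 was not called when replicate 1 or 3 of treated RT112 or replicate 1 or 2 of treated 5637 was left out. In RT112, 1 of the 13 rose with CM272, ADAMTS9 by 0.44 ± 0.06 as deposited and 1.07 after quantile normalization, and 3 fell, a smaller share than the 32.4% of all genes. The sheddase ADAM10 fell by 1.47 ± 0.09, ADAM28 fell by 1.25 ± 0.07 and ADAM17, which releases TNF, fell by 0.86 ± 0.09 (adjusted p between 6.73e-07 and 2.85e-05, limma), with -1.21, -0.73 and -0.55 after quantile normalization. These 3 are also among the 10 called higher in treated 5637, by 0.44, 0.31 and 0.60 as deposited. Both comparisons use the treated RT112 arrays, so the low levels of ADAM10, ADAM28 and ADAM17 there enter both. On the deposited values all 3 were higher in untreated RT112 than in treated 5637. After quantile normalization that held for ADAM10 and ADAM28 and not for ADAM17, whose difference between the treated lines was 0.59.

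Transcription factors of the AP-1 and ETS families were measured beside the promoters shown above. With CM272 in RT112, 3 of 11 rose in all scalings and 0 fell, against 10.8% and 32.4% of all genes. Those that rose were FOSB by 6.91 ± 0.18, FOS by 1.22 ± 0.11 and JUN by 0.73 ± 0.10 (adjusted p between 4.31e-08 and 0.000156, limma). Between the treated lines 3 were higher in 5637 and 6 lower, against 14.9% and 15.2% of all genes. Among the higher were ETS1, by 1.08 ± 0.09, and FOSL1, by 0.51 ± 0.08. Among the lower were ETV5, with a mean of 5.30 in treated 5637 and 6.30 in treated RT112, and ETV4, by -0.49 ± 0.06. The adjusted p of ETS1, FOSL1, ETV5 and ETV4 lay between 1.54e-05 and 0.00105 (limma). FOSL2 was the other higher gene, with a log2 difference of 0.54. JUNB, FOSB, FOS and ETS2 were the other lower ones, with -1.03, -0.71, -0.66 and -0.24. Whether any of these factors acts on the genes was not tested.

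**Figure D5:**
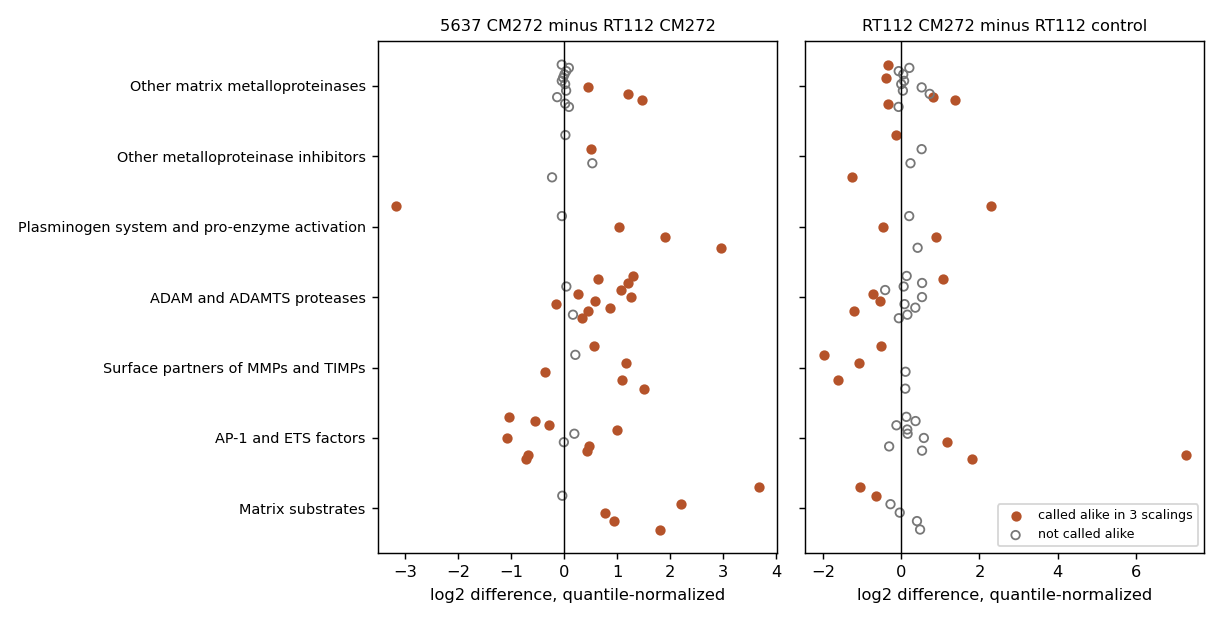
Log2 differences after quantile normalization (horizontal axes, a scale of its own for each panel) of the measured genes in 7 lists around the metalloproteinases, for 5637 CM272 minus RT112 CM272 (left) and RT112 CM272 minus RT112 control (right). Filled points are genes called alike under the 3 scalings, and open points are the others. ADAM and ADAMTS genes and matrix substrates lie mainly right of 0 at left, and FOSB is the far right point at right.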

How the data were processed

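Expression was measured with Affymetrix whole-transcript arrays in 12 samples, of which 9 were used. The authors deposited 1 table of log2 values. The submitters' processing notes name RMA and Affymetrix Expression Console, without version or build. The values reach 19.93, and no source used here says how that scale arose. The number of arrays, 3 per group, limits the precision.

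Of 70523 rows, 23781 had 1 gene symbol in GEO's platform annotation, 1543 several and 45199 none. The brightest row per gene over the 9 arrays was kept (479 genes had more than 1), giving 22465 genes, 22167 of them matched to RefSeq by symbol. A model with 3 group means was fitted with limma 3.58.1 in R 4.3.3 (lmFit, eBayes, Benjamini-Hochberg, adjusted p threshold 0.05), with 6 residual degrees of freedom. Scalings were the deposited values, centring on the median of the tested genes, and quantile normalization over the 9 arrays. The fit was tested on simulated data. Members and lists were chosen with earlier results of these data known. Beyond the members, named genes were up to 4 per list with the smallest adjusted p among those called alike, the cluster of chromosome 11 with 3 genes on either side, and the 5 genes most like MMP1. The text also names some others that a count of 5 or fewer covers, and the AP-1 and ETS genes called alike between the treated lines. Same-numbered arrays did not deviate together, with correlations of their deviations between -0.09 and 0.04. Alternatives were 8 settings and leaving out each of the 9 arrays.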

Additional observations from a re-analysis of the deposited data

How the results depend on the processing

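Between the treated lines the counts of members called, 4 higher and 2 lower, were the same under 6 of 8 alternatives. Centring gave 4 and 3. Leaving out genes with equal replicates removed MMP13, MMP14 and TIMP1 and left 3 and 0. With CM272 in RT112 the scaling set the counts. Of all genes, 2433 were higher and 16660 lower on the deposited values, 7608 and 7814 after centring, and 7017 and 8351 after quantile normalization; leaving out dim genes gave 7794 lower. Members called higher numbered 3 on the deposited values and 5 after centring or quantile normalization, and without genes of equal replicates 2 members were lower. Over the 7 related lists, 8 genes were higher and 37 lower on the deposited values, 27 and 15 after centring, 23 and 18 after quantile normalization, and 19 were lower without dim genes. Taking the replicate number as a block, although the numbers did not pair the arrays, called 4 members higher and 2 lower between the treated lines and 3 and 4 in RT112, as without it.

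In RT112 the sign turned between the 3 scalings for 25 of 59 genes of the related lists and 1 of 9 members (MMP9). For 8 of the 25 the calls were opposite, among them MMP27 and ADAM12 (-0.26 deposited, 0.36 after quantile normalization). Between the treated lines MMP8 was at -0.0049 after centring, MMP20 at 0.014 after quantile normalization, and when arrays were left out MMP9 lay between -0.052 and 0.0026 and MMP20 between -0.030 and 0, the last being no difference. In RT112 the difference of MMP9 was 0.018 and of MMP20 0.0023 after quantile normalization. MMP27 was at 0.18 after centring and 0.21 after quantile normalization, against -0.38 on the deposited values, BIRC2 at 0.41 and 0.058, and PDGFD at 0.054 and 0.12. Centring adds the same amount to each gene's RT112 difference, and MMP27, BIRC2 and PDGFD had the other sign after it. MMP9 and MMP20 kept their sign in RT112 after centring and turned only after quantile normalization. The call of MMP7 in RT112 sat at the threshold and passed when dim genes (adjusted p = 0.049965) or genes with equal replicates (0.0496) were left out. No detection call limits what dim genes can show.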

Other observations

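Substrates of the enzymes and their surface partners differed between the treated lines as well. Of 6 measured matrix substrate genes, 5 were called alike as higher in treated 5637 than in treated RT112, against 14.9% of all genes. FN1, which encodes fibronectin, averaged 13.01 ± 0.04 in treated 5637, against 9.27 ± 0.03 in treated RT112 and 10.49 ± 0.15 in untreated RT112 (SD, n = 3 each), and the difference between the treated lines was 3.75 ± 0.07 (SE, adjusted p = 1.23e-08, limma). The collagen genes COL4A2 and COL1A2 were higher by 2.30 ± 0.09 and 1.02 ± 0.05, and COL1A1 averaged 7.25 ± 0.04 in treated 5637 and 5.34 ± 0.09 in treated RT112. With CM272 in RT112, 2 of the 6 fell, close to the 32.4% of all genes called alike as lower: FN1 by 1.22 ± 0.07 and the elastin gene ELN by 1.14 ± 0.04 (-1.05 and -0.64 after quantile normalization).

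Surface partners were called alike as lower in RT112 in 4 of 6 cases, against 32.4% of all genes, and as higher in 0, against 10.8%. ITGB1, the integrin beta-1 chain, fell by 2.01 ± 0.13, CD44, a hyaluronan receptor that can hold MMPs at the cell surface, fell by 1.77 ± 0.09, ITGA2, the collagen-binding alpha-2 chain, fell by 1.12 ± 0.11 and LRP1, which clears MMP and TIMP complexes, fell by 0.93 ± 0.04 (adjusted p between 2.04e-07 and 1.79e-05, limma). After quantile normalization these differences were -1.98, -1.60, -1.06 and -0.52. In treated 5637, BSG, whose product induces MMPs in neighbouring cells, was higher than in treated RT112 by 1.52 ± 0.11, ITGA2 by 1.17 ± 0.11, CD44 by 1.09 ± 0.09 and LRP1 by 0.63 ± 0.04, while the TIMP1 receptor gene CD63 was lower. Both comparisons use the treated RT112 arrays, so the low levels of CD44, ITGA2 and LRP1 there enter both. On the deposited scale CD44 averaged 14.71 in treated 5637, 13.62 in treated RT112 and 15.39 in untreated RT112. In the same order ITGA2 averaged 12.02, 10.84 and 11.96, and LRP1 7.39, 6.76 and 7.70. The treated replicates of CD44 and ITGA2 in RT112 were tied, so their SEs rest in part on an SD of 0. Both ITGB1 and CD44 had several rows, and averaging the rows gave RT112 differences of -1.08 for ITGB1 and -2.08 for CD44.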
